A study of Mus musculus with 458 samples.

Results

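Platelet-restricted haematopoietic stem cells (PLT HSCs) were 177 of the 458 single HSCs in the study, 93 from one mouse (PLT1) and 84 from another (PLT2). They were selected by the class that the deposited cell table gives each cell, which matched the class in the sample labels for every cell. HSCs sit at the top of blood formation and can give rise to every blood lineage. Some HSC clones, enriched among cells that express von Willebrand factor (Vwf), replenish platelets almost alone after transplantation while they keep other HSC properties, and platelets themselves are shed by megakaryocytes, the large bone marrow cells that carry the granules and adhesion receptors of platelets. HSCs of this kind have been linked in the field with ageing of the blood system, in which platelet-biased HSCs and a set of age-linked transcripts accumulate.

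Each group came from recipients of 1 transplanted Vwf-positive bone marrow HSC, so that the HSCs of a mouse were the progeny of 1 clone, and the recipients were classed by the blood lineages that the clone had made over 16 weeks. The background groups were multilineage (MUL, 163 cells of 2 mice) and platelet-erythroid-myeloid restricted (PEM, 118 cells of 2 mice). All cells were C57BL/6 donor-derived HSCs, sorted from recipient bone marrow as LSK (lineage-negative, Sca-1-positive, Kit-positive) CD150+CD48-CD45.2+, and were sequenced 1 cell per library on 2 plates per mouse. The mouse, and not the cell, is the replicate here: n = 2 for PLT, and mouse, clone, plates and recipient cannot be told apart within a class. The opening code of the sample titles was the same in both MUL mice and differed from that of PEM1 and of each PLT mouse. Differences between the classes cannot be told apart from whatever this code separates.

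With read numbers in M (mega-, the SI prefix), the median depth of the 177 PLT cells was 4.85 M (range 1.97 to 10.5 M). The medians of PLT1 and PLT2 were 4.82 and 4.87 M reads, but a median of 1869 genes was detected in PLT1 and 2596 in PLT2, a difference that stands beside every share of cells compared between the 2 mice. Detected genes in the other 4 mice had medians of 2209.5 to 3186. The mitochondrial share of reads was 6.41% in PLT1 and 6.69% in PLT2, against 4.01 to 6.06% in the other mice. One plate of PEM2 stood apart, with a median of 12.2 M reads and 1944 detected genes. The cell table recorded PLT2 and PEM2 as female and the other mice as male. Xist, which is transcribed from the inactive X chromosome, reached 1 RPKM in 17 of 25 PEM2 cells (68%). It reached 1 RPKM in 0 of 84 cells of PLT2 and in 0 cells of the mice recorded as male. The Y-linked gene Eif2s3y reached it in 40.5% of PLT2 cells. Whose sex was recorded, the donor's or the recipient's, is not given in the sources used here. The comparisons of the classes below do not adjust for sex. The deposited unit is RPKM (a read number scaled to the gene's length and to the reads of the cell, so that levels of different genes can be compared), and a gene is called expressed in a cell at 1 RPKM or more. Of the values above 0 in PLT cells, 49.0% were below 1 RPKM, 14.5% were between 1 and 10 RPKM and 36.5% were at 10 RPKM or more.

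The sorting phenotype was visible in the RNA only in part. Cd48, the surface protein that the sort excluded, was expressed in 0 of 93 cells of PLT1 and 0 of 84 of PLT2, which allows a share of up to 3.23% and 3.57%. Slamf1, which encodes CD150, was expressed in 21.5% and 17.9% of the cells, Kit in 34.4% and 39.3%, and Ly6a, which encodes Sca-1, in 38.7% and 44.0%. These cells were positive for the proteins by sorting, so a value below the threshold in a single cell does not show that the gene was silent.

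A set of 5 genes served as markers of the class, and 4 of them had higher means in both PLT mice than in all 4 others. Mmrn1 encodes multimerin 1, a protein stored in platelet granules (chromosome 6: 60924976 to 60989378, GRCm38). Its mean was 97.5 RPKM in PLT1 and 84.4 RPKM in PLT2, and it was listed at 0 in every MUL cell and every PEM1 cell and at a mean of 0.001 RPKM in PEM2. It was expressed in 28 of 93 PLT1 cells (30.1%, exact 95% interval 21 to 40.5%) and in 36 of 84 PLT2 cells (42.9%, 32.1 to 54.1%). The other mice had 0 expressing cells, which allows a share of up to 3.23% in the best sampled of them, PEM1, and 12% in PEM2.

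The expressing minority held nearly all of the Mmrn1 RNA. The median of the expressing cells was 334 RPKM in PLT1 and 141 RPKM in PLT2. A further 50 PLT1 cells and 40 PLT2 cells held a trace, with medians of 0.181 and 0.225 RPKM, and 15 and 8 cells were at 0. Few cells lay between the trace and the high mode, with 5 and 3 cells from 1 to 10 RPKM. Its 5 highest cells contributed 39.2% of the RPKM sum of PLT1 and 40.2% of that of PLT2.

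Mt1 encodes metallothionein 1, a small cysteine-rich protein that binds zinc, copper and cadmium (chromosome 8: 94179082 to 94180327). It was the most widely expressed marker, in 82.8% of PLT1 cells and 95.2% of PLT2 cells, with means of 231 and 280 RPKM. The means of the other mice were 31.6 and 15.1 RPKM in MUL and 116 and 120 RPKM in PEM. By mean, the PLT mice were thus highest and the 3 classes did not overlap. By share of cells, PEM1 was close to PLT1, at 78.5% (exact 95% interval 68.8 to 86.3%) against 82.8% (73.6 to 89.8%). The share was 48% in PEM2 and 16.7% and 18.8% in MUL. Mt1 values also had 2 modes, because 31 PLT1 cells lay between 1 and 10 RPKM, 10 between 10 and 100 RPKM and 36 at 100 RPKM or more. In PLT2, 57 of 84 cells were at 100 RPKM or more. At a threshold of 10 RPKM the shares were 49.5% and 73.8% in PLT1 and PLT2, against 45.2% in PEM1 and 28% in PEM2.

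Clu encodes clusterin, a secreted chaperone that is also found in platelet granules (chromosome 14: 65968483 to 65981547). Its means were 93.0 and 99.2 RPKM in PLT1 and PLT2, 63.6 and 32.1 RPKM in PEM and 9.64 and 8.14 RPKM in MUL. It was expressed in 21.5% and 35.7% of PLT cells, shares that overlapped the 28.0% of PEM1 and 20% of PEM2. The median of the expressing cells was 466 RPKM in PLT1 and 170 RPKM in PLT2. In PLT1 the 2 plates differed in Clu, with 34.0% of cells on plate 1 and 8.70% on plate 2.

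Gkn3 encodes gastrokine 3 (chromosome 6: 87383256 to 87388935), first known from the stomach. Its means were 106 and 133 RPKM in PLT1 and PLT2 and 3.11 to 13.5 RPKM in the other mice. Only 15 of 93 and 26 of 84 PLT cells expressed it (16.1% and 31%), at medians of 497 and 246 RPKM, and the 5 highest cells held 62.8% and 63.8% of the sum. It too was found in more cells on plate 1 than on plate 2, with 23.4% against 8.70% in PLT1 and 34.9% against 26.8% in PLT2.

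Vwf, the gene by which the founder cells had been chosen (chromosome 6: 125546774 to 125686679), did not set the PLT mice apart. Its means were 18.4 and 15.1 RPKM in PLT, 24.6 and 23.5 RPKM in PEM and 2.39 and 8.53 RPKM in MUL. It was expressed in 25.8% and 44.0% of PLT cells, against 54.8% and 40% of PEM cells and 11.5% and 15.3% of MUL cells. The 5 markers were chosen with earlier results of these data known, so their levels are a description of the class and not an independent check of its label.

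**Figure D1:**
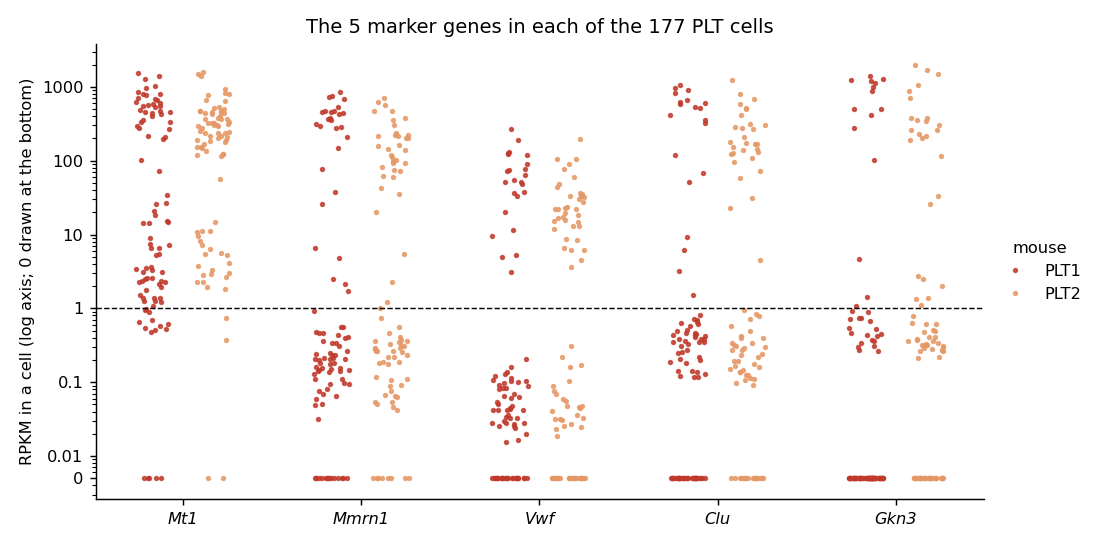
RPKM of the 5 marker genes in every PLT cell, 1 point per cell on a log axis with values of 0 drawn at the bottom, red for the 93 cells of PLT1 and orange for the 84 cells of PLT2; the dashed line is 1 RPKM. Mmrn1, Vwf and Clu split into cells at 0 or a trace and expressing cells that mostly exceeded 10 RPKM, while most cells of both mice carried Mt1.

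The markers did not mark one shared subset of cells. At least 1 of the 5 was expressed in 83 of 93 PLT1 cells (89.2%) and 82 of 84 PLT2 cells (97.6%), against 25.6% and 32.9% of MUL cells and 88.2% and 60.0% of PEM cells. At least 3 were expressed in 18 cells of PLT1 (19.4%) and 40 cells of PLT2 (47.6%), against 20.4% and 20% of PEM cells and 1.28% and 1.18% of MUL cells, so that PLT1 lay below both PEM mice. No PLT1 cell and 4 PLT2 cells expressed all 5. Spearman's rho between any 2 markers across the cells of a mouse lay between -0.14 and 0.20 over the 10 pairs and both mice. These rho values also rank the 0 and trace values below 1 RPKM. Of the Mmrn1-expressing PLT1 cells, 17.9% expressed Clu, against 23.1% of the Mmrn1-negative ones. In PLT2 the shares were 41.7% and 31.3%. Mt1 was in 100% of Mmrn1-expressing PLT1 cells against 75.4% of the negative ones, and in 94.4% against 95.8% in PLT2. Gkn3 was less frequent in Mmrn1-expressing cells of both mice (7.14% against 20%, 25% against 35.4%). Vwf was more frequent in Clu-expressing cells of both (40% against 21.9%, 56.7% against 37.0%). The other pairs are not reported here. The number of markers in a cell moved with the number of genes detected in it (rho 0.42 in 93 cells and 0.58 in 84), and the part of detection in these counts was not tested.

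The mean of metallothionein 2 (Mt2), the neighbour of Mt1, differed in the same direction at a far lower level. Mt2 means were 14.3 and 18.9 RPKM in PLT, 8.91 and 6.48 RPKM in PEM and listed at 0 in both MUL mice. It was expressed in 9.68% and 14.3% of PLT cells, compared with 82.8% and 95.2% for Mt1. The Mt2 shares of PEM1 and PEM2, 11.8% and 8%, overlapped those of PLT. The 5 highest cells held 99.3% of the Mt2 sum in PLT1 and 94.6% in PLT2. Mt3 and Mt4 were listed at 0 in all PLT cells. Metallothionein genes are known to be induced by metal ions through short promoter elements that bind the transcription factor MTF-1. Because the means of Mt1 and Mt2 differed in the same direction, the 250 bases before their annotated starts are shown (RefSeq, GRCm38.p6). Capitals mark each match to the metal response element core TGCNCNC on either strand (overlapping matches are counted separately). The Gkn3 promoter follows, with capitals on each match to GATAA on either strand, the core bound by GATA factors.
Mt1: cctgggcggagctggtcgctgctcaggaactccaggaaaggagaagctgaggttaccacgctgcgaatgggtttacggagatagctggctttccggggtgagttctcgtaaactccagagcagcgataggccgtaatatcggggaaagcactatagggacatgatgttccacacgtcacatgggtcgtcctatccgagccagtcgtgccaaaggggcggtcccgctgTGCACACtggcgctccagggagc
Mt2: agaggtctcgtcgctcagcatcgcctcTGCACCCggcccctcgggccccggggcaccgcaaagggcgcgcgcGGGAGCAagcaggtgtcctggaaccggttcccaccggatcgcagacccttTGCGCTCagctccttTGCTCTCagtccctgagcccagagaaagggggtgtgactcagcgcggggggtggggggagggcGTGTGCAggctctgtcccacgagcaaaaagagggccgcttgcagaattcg
Gkn3: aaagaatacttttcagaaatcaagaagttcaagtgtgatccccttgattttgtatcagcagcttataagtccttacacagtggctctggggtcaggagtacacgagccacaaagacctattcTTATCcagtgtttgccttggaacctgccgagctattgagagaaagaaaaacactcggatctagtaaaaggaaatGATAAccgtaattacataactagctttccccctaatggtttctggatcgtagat
The Mt1 window was chr8:94178839-94179088, the Mt2 window chr8:94172368-94172617, both on the forward strand, and the Gkn3 window chr6:87388936-87389185 on the reverse strand. The Mt1 window held 1 match to TGCNCNC and the Mt2 window 5; of all 32851 promoter windows of this length, 44.4% held at least 1 match and 0.344% at least 5. GENCODE places other Mt1 transcripts 122 and 152 bases after the RefSeq start, and Mt2 transcripts 46 and 242 bases after it, so matches nearer to those starts lie outside these windows. The Gkn3 window held 2 matches to GATAA; 22.6% of windows held at least 1 and 4.28% at least 2. A promoter entry was found for Mmrn1, Mt1, Gkn3 and Mt2. The Mmrn1 window is not shown because its RefSeq start lies 159 bases before the nearest protein-coding GENCODE start. These matches describe the letters of the windows only.

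To ask which genes set the PLT mice apart across the whole table, mean RPKM per mouse was compared over 11337 genes (limma on log2 of the mean + 1, with Benjamini-Hochberg adjustment). Against the mean of MUL and PEM, 0 genes passed an adjusted p of 0.05, which is 0% of those tested, and 1023 had an unadjusted p under 0.05, 264 of them higher and 759 lower in PLT. Mmrn1 was nearest among the higher genes and Ctla2b among the lower, both with a limma adjusted p of 0.0532. Mmrn1 met the filter on low means only through the 2 PLT mice, so that its direction was fixed by its being tested. Of the 11337 genes, 525 reached the minimum mean in fewer than 2 of the other 4 mice, and these include 80 of the 697 genes with both PLT mice above all others that are counted below. Against MUL alone, 1 gene passed (0.00882% of those tested), and against PEM alone 0 genes passed (0%), with 953 and 949 genes at an unadjusted p under 0.05. Mmrn1 passed in 6 of the alternative settings and Ctla2b in 3, so these calls sit at the threshold. Without regard to the test, both PLT mice lay above all 4 other mice in 697 genes (6.15%) and below all 4 in 1356 genes (12%), and the median log2 difference of all genes was -0.14, which is the background against which the groups below are read.

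Ctla2b, which encodes an inhibitor of cysteine proteases (chromosome 13: 60895350 to 60897447), was the gene that passed against MUL. Its means were 23.8 and 16.3 RPKM in PLT, 78.0 and 85.7 RPKM in PEM and 362 and 455 RPKM in MUL, with no overlap between the classes. It was lower in PLT than in MUL by a log2 difference of -4.29 ± 0.38 (SE, limma adjusted p = 0.0289) and lower than in the rest by -3.14 ± 0.33. The call against MUL was lost when any 1 of the 6 mice was left out, with 0 genes passing each time. Ctla2b has a closely related paralogue, Ctla2a, at 13.7 and 79.6 RPKM in PLT and 154 to 517 RPKM elsewhere, and reads that match both cannot be placed with certainty.

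Among the genes with the smallest p that were higher in PLT, several were nearly limited to a few cells. Dpy19l2 and Smpdl3b were listed at 0 in all 4 other mice, so that, like Mmrn1, they were tested only because both PLT mice were higher, and they had PLT means of 10.6 and 8.12 RPKM and of 8.89 and 3.93 RPKM. These means came from 4 and 2 cells and from 2 and 2 cells. Gpx8, a glutathione peroxidase family member of the endoplasmic reticulum, had means of 23.4 and 13.9 RPKM against 0 to 2.87 RPKM, from 5 and 6 cells. Lactb, a mitochondrial serine beta-lactamase-like protein, had means of 16.3 and 17 RPKM against 0 to 1.46 RPKM, also from 5 and 6 cells. Of the other mice only MUL1 reached the minimum mean for Lactb, so it too was tested only through the PLT mice. Gkn3, Mt1 and Clu also stood among them, with log2 differences of 4.26 ± 0.61, 2.29 ± 0.38 and 2.18 ± 0.43 (SE; limma adjusted p 0.241, 0.302 and 0.306). Erdr1, a multi-copy gene whose reads can be split among copies, was at 102 and 308 RPKM in PLT but overlapped PEM, at 91.6 and 175 RPKM, and only MUL was low, at 3.29 and 0 RPKM. A predicted gene ranked among these and is not described.

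Ctla2b aside, the genes with the smallest p that were lower in PLT ranged widely in their shares of MUL and PEM cells. The shares were 50 to 80% for Fermt3 and 3.85 to 20% for Trib3. Gna15, the G protein alpha subunit of haematopoietic cells, had means of 47.2 to 72.1 RPKM in the 4 other mice, 2.87 RPKM in PLT2 and was listed at 0 in PLT1, where 0 of 93 cells expressed it. Ctsd, the lysosomal protease cathepsin D, had 35 and 12.9 RPKM in PLT against 136 to 217 RPKM. Ctsd differed by -3.03 ± 0.44 on the log2 scale (limma adjusted p = 0.241). Sfpi1, which encodes the myeloid and lymphoid transcription factor PU.1, had 9.05 and 6.42 RPKM against 39.2 to 66.7 RPKM and was expressed in 6.45% and 9.52% of PLT cells.

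The remaining lower genes of this rank also had PLT means that did not overlap those of the other mice. Ccnd3, which encodes cyclin D3, had 17 and 14.0 RPKM against 50.6 to 105 RPKM. Trib3, a pseudokinase induced by the integrated stress response, had 0.0026 and 0.314 RPKM against 8.92 to 39.2 RPKM. Xlr4a, Cby1 and Polr3c had PLT means of 1.71 to 7.33 RPKM and means of 17.4 to 68.2 RPKM elsewhere. Fermt3, which encodes kindlin-3, the activator of platelet and leukocyte integrins, had 56.9 and 52.0 RPKM against 141 to 226 RPKM, a log2 difference of -1.84 ± 0.32 (limma adjusted p = 0.302).

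**Figure D2:**
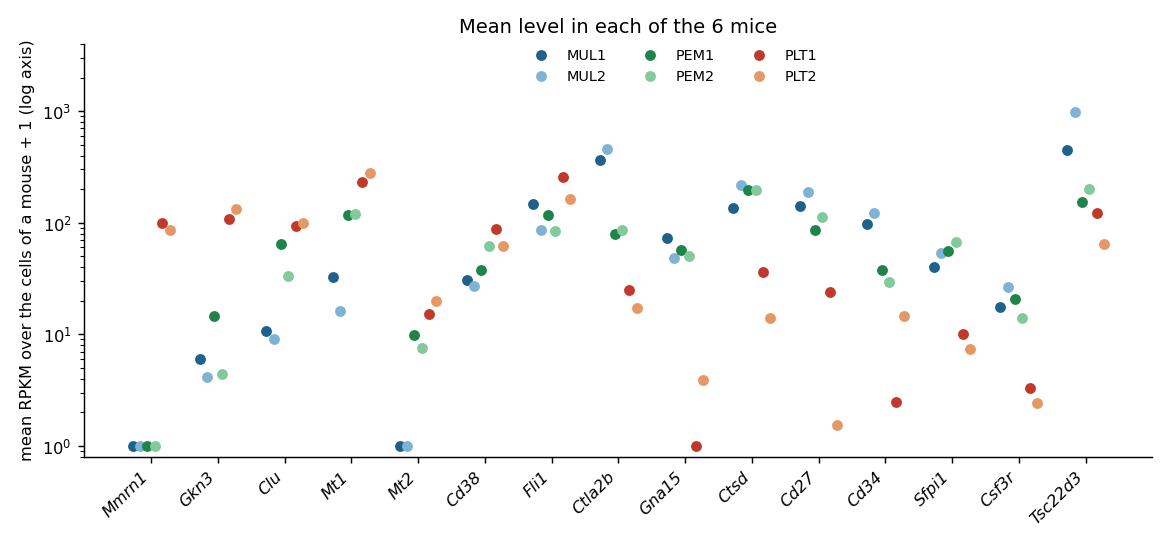
Mean RPKM over the cells of a mouse, plus 1, on a log axis for 15 genes, 1 point per mouse (blue MUL, green PEM, red and orange PLT). PLT1 and PLT2 are the highest points for the first 7 genes and the lowest for the other 8.

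Genes of HSC identity and self-renewal were divided. Of 41 tested members, none passed, 3 had both PLT means above and 7 both below all other mice, and the median log2 difference was -0.10, close to the -0.14 of all genes. Fli1, an ETS factor needed for HSCs and for megakaryocytes, was expressed in 94.6% and 92.9% of PLT cells. Its means of 256 and 161 RPKM lay above the 83.0 to 145 RPKM of the other mice (log2 difference 0.95, limma unadjusted p = 0.0310). Runx1 and Tek were the other 2 members above, at 16.6 and 10.7 RPKM and at 17.6 and 17.2 RPKM. The widely expressed members Lmo2 (81.7% and 82.1% of cells) and Meis1 (76.3% and 65.5%) overlapped the other classes.

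Genes of surface proteins were among the members that lay below. Cd27, a receptor of the tumour necrosis factor receptor family that marks HSCs and progenitors with lymphoid potential, had means of 22.7 and 0.542 RPKM in PLT against 85.4 to 187 RPKM. It was expressed in 23.7% of PLT1 cells but 1.19% of PLT2 cells. Cd34, low in the most dormant mouse HSCs, had 1.48 and 13.4 RPKM against 28.5 to 121 RPKM, and only 1.08% and 7.14% of PLT cells expressed it. Kit (58.7 and 30.2 RPKM), Ly6a (290 and 191 RPKM), Esam (41.3 and 14.5 RPKM) and Eng (11.8 and 7.24 RPKM) also lay below. The unadjusted p of these genes in limma lay between 0.00108 for Cd34 and 0.0397 for Kit, and none passed adjustment.

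Genes linked with HSC ageing showed the opposite balance. Of 33 tested members, 24 had positive log2 differences, the median was 0.69, 6 had both PLT means above all others and 0 had both below. The 6 were Mmrn1, Mt1, Mt2, Clu, Gkn3 and Cd38, so 4 of them are the markers by which the class is known. These markers, and the list median and count that include them, are not separate support. The list median was 0.86 against MUL and 0.27 against PEM, so the distance was mostly from MUL. The summed means of the list were 2871 and 1886 RPKM in PLT against 979 to 2242 RPKM elsewhere, so PLT2 lay within the range of the others. Cd38, an ectoenzyme that degrades NAD, had means of 86.5 and 61.3 RPKM against 26 to 60.2 RPKM. The widely expressed Nupr1, Cpne8 and Enpp5 overlapped the other classes, and for Selp, at 47.5 and 34.3 RPKM in PLT, the range of the others was 12 to 48.0 RPKM. Of 41 members in the file, 13 were expressed in under 5% of the cells of both PLT mice.

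Of 13 tested genes of platelet granules and chemokines, 3 lay above in both PLT mice (Mmrn1, Clu and Vegfa) and 0 below. Mmrn1 and Clu, and Vwf, which is also in this list, are markers by which the class is known. They and the list median are therefore not separate support. The median of the granule list was 0.45 against the rest, 0.86 against MUL and -0.49 against PEM, so its sign turned with the class compared. Vegfa rested on 3.23% and 2.38% of cells. Srgn, which encodes the granule proteoglycan serglycin, was expressed in 90.3% and 100% of PLT cells and overlapped the others at 841 and 1467 RPKM. Pf4, platelet factor 4, was at 133 RPKM in PLT1 and 633 RPKM in PLT2, within the range of 19.4 to 1382 RPKM of the others. Of 20 members in the file, 12 were expressed in under 5% of the cells of both PLT mice.

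Platelet surface receptors and signalling genes had a median of -0.89 against PEM and -0.17 against MUL. Of 30 tested members, 8 lay below in both PLT mice and 1 above, the median against the rest was -0.39, and none passed. Itga2b, which encodes CD41, had means of 0.888 and 2.68 RPKM in PLT against 6.57 to 25.2 RPKM. The glycoprotein V gene Gp5 was listed at 0 in PLT1 and had 1.75 RPKM in PLT2, against 2.88 to 21.2 RPKM. The thrombin receptor family genes F2rl2 and F2rl3, the platelet protein kinase C substrate Plek, Rasgrp2 and Fermt3 also lay below. The exception above was Alox12, the platelet 12-lipoxygenase, at 4.07 and 10.5 RPKM against 0.390 to 3.18 RPKM. Cd9, the tetraspanin of platelets, was the most widely expressed member (40.9% and 71.4% of cells) and overlapped.

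Among 19 tested transcription factors of the megakaryocyte-erythroid axis, 3 lay above (Fli1, Mef2c and Runx1) and 4 below. Nfe2, needed for platelet release, had 205 and 122 RPKM in PLT against 239 to 519 RPKM. Etv6, Lyl1 and Ldb1 were the other 3 below. Mef2c had 52.8 and 53.4 RPKM against 31.3 to 38.2 RPKM, a difference with an unadjusted p of 0.139 in limma. Gata1, the master regulator of erythroid and megakaryocyte genes, was expressed in 4.30% of PLT1 cells and 40.5% of PLT2 cells, with means of 4.23 and 16.8 RPKM against 4.30 to 19.8 RPKM elsewhere, so that PLT1 was the lowest mouse and PLT2 lay within the range. Of 20 tested erythroid progenitor genes, 1 (Mt2) lay above and 1 (Hemgn) below. Car2 and Apoe were expressed in 95.7% and 100%, and 97.8% and 94.0%, of PLT cells, at levels that overlapped the other classes.

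Of 13 tested myeloid progenitor genes, 3 lay below in both PLT mice and 0 above, with a median of -0.72. These were Sfpi1, Ms4a3 and Csf3r, the granulocyte colony-stimulating factor receptor, which had 2.32 and 1.41 RPKM against 12.9 to 25.3 RPKM. Csf3r shows what the 1 RPKM threshold hides, since 82.8% and 54.8% of PLT cells passed it but 0 cells of either mouse reached 10 RPKM. Plac8 and Prtn3 were expressed in 41.9% and 77.4%, and 49.5% and 34.5%, of PLT cells. Of 12 tested lymphoid-priming genes, 0 had a positive log2 difference, the median was -0.85, and 2 lay below, Notch1 and Flt3. Flt3, the receptor of lymphoid-primed progenitors, was listed at 0 in all PLT cells, which allows a share of up to 3.23% and 3.57%, while the other mice had means of 1.14 to 13.2 RPKM from 1.08 to 8.24% of cells.

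Cytokine and growth factor receptors had a median of -0.71 over 22 tested members, with 3 above and 6 below. Notch2 and Ifnar1 were expressed in at least 98.8% of the cells of both PLT mice and overlapped the other classes. Ifngr1, the interferon gamma receptor, had 67.3 and 55 RPKM against 84.4 to 194 RPKM. Interferon response genes had a median of -0.44 over 25 tested, with 1 above and 7 below. Ifitm1, Ifitm2 and Ifitm3 were expressed in at least 98.9% of PLT cells at means of 975 to 1867 RPKM and overlapped, whereas Irf1 had 8.06 and 11.2 RPKM against 38.9 to 52.4 RPKM and Ifi27l2a was listed at 0 in both PLT mice against 4.29 to 26.4 RPKM. Genes of antigen presentation had a median of -0.86 over 15 tested, with 4 below and 0 above, led by Tap2 (11.6 and 1.88 RPKM against 29.6 to 44.9 RPKM), with H2-K1 and H2-D1 at 1234 and 700 RPKM and at 325 and 240 RPKM. B2m, the shared light chain of those molecules, overlapped.

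Immediate early and dissociation genes had the lowest median of the 20 described lists, -1.24 over 18 tested, with 4 below and 0 above. The median was -1.83 against MUL and -0.53 against PEM, so the distance was mostly from MUL. The summed means of the list were 213 and 96.9 RPKM in PLT against 241 to 755 RPKM. Dusp1, a phosphatase that ends MAP kinase signals, had 17.8 and 16.1 RPKM against 25.3 to 374 RPKM. Ppp1r15a had 13.8 and 10.7 RPKM against 25.8 to 77.6 RPKM. Of 13 glucocorticoid and FoxO response genes, 2 lay below. One was Tsc22d3, which encodes the glucocorticoid-induced leucine zipper, at 121 and 63.0 RPKM against 154 to 984 RPKM, the highest values being those of MUL.

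Nuclear genes of oxidative phosphorylation were the largest described list. Of 75 tested, 63 had positive log2 differences, 13 lay above and 3 below, and the median was 0.40 (0.66 against MUL and 0.12 against PEM), but none passed (lowest limma adjusted p 0.389). Cox7c, a subunit of complex IV, had 570 and 910 RPKM in PLT against 235 to 505 RPKM, and Ndufa7 of complex I 713 and 652 RPKM against 298 to 519 RPKM. The summed means of the list were 21460 RPKM in PLT1 and 34043 RPKM in PLT2 against 16014 to 24445 RPKM in the other mice, so PLT1 lay below PEM1 (24445 RPKM) and PEM2 (22831 RPKM) and only PLT2 was apart. The exception with the clearest difference was Atp5d, at 18.0 and 59.7 RPKM against 87.2 to 158 RPKM. Glycolysis and hypoxia genes had a median of -0.36 over 19 tested, with 6 below, among them Pkm (160 and 106 RPKM against 209 to 352 RPKM) and Aldoa (253 and 352 RPKM against 413 to 551 RPKM). Hk2, hexokinase 2, lay above at 60.6 and 28.2 RPKM against 10.7 to 24.3 RPKM. Of 21 DNA methylation and Polycomb regulators, Eed lay above (85.8 and 83.5 RPKM against 42.7 to 59.8 RPKM) and 2 lay below, including Cbx7 (1.81 and 0.893 RPKM).

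**Figure D3:**
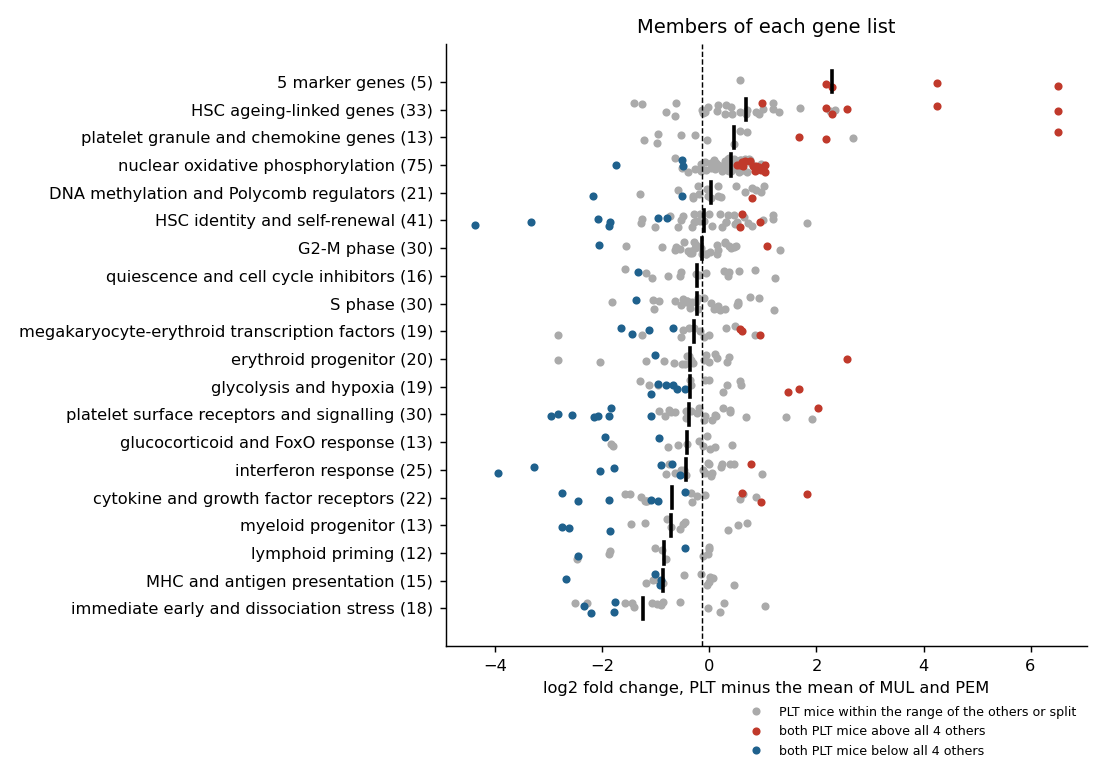
Log2 difference of each tested member of 20 gene lists, PLT minus the mean of MUL and PEM (horizontal axis), with black bars for the list medians and a dashed line at the median of all 11337 genes. Red and blue points are members with both PLT mice above or below all 4 other mice; medians run from -1.24 for immediate early genes to 2.29 for the 5 markers, and no member passed the adjusted threshold.

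PLT cells shared most of a core of widely expressed genes with the other HSCs. In both PLT mice, 327 genes were expressed in at least 90% of the cells, and 105 genes reached 10 RPKM in that share. Of the 327, 47 encode cytosolic ribosomal proteins, 73 were at 10 RPKM or more in under 50% of the cells of both PLT mice, and 244 (74.6%) were also expressed in at least 90% of the cells of all 6 mice. Nanog, Tyr and Wnt4 are also in the core, and how much low-level signal the 1 RPKM threshold admits was not tested. The highest means belonged to Actb (10944 and 8885 RPKM), B2m (5784 and 10245 RPKM), Rpl35, Hmgn2, H3f3b, Calm2, Cbx3, Rps14, Rps18 and Ubb, each expressed in 100% of PLT cells. Their coefficient of variation across the cells of a mouse was between 0.31 for Ubb in PLT1 and 0.82 for Hmgn2 in PLT1. Of the 327, 8 reached 90% of cells in both PLT mice and in none of the others, but the shares were close; Acot2, an acyl-CoA thioesterase, was in 95.7% and 90.5% of PLT cells against 60.0 to 87.2%. Many genes were found in few cells: 6978 of the 11665 genes expressed in PLT1 and 5481 of the 11968 expressed in PLT2 were in under 10% of cells.

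The PLT mice differed from each other. Over 6211 genes whose mean reached 10 RPKM in either of them, Pearson's r of the log2 means was 0.76 across genes. A difference of at least 4-fold with no overlap between the plates of the 2 mice was found for 567 genes, 239 higher in PLT2 and 328 higher in PLT1. With a pseudocount of 10 in place of 1, 56 genes were left, so most of these genes were at low means. With 1 mouse on each side there is no test. Zg16 had 100 RPKM in PLT1, where 17.2% of cells expressed it, and was listed at 0 in PLT2. Chi3l3, Zfp54, Lgmn, Clec7a and Cd72 followed, with PLT1 means of 28.9 to 71.4 RPKM and PLT2 means of 0 to 0.13 RPKM; Chi3l3 and Zfp54 came almost wholly from plate 2. In the other direction Cdk5rap1 had 44.8 RPKM in PLT2, where 26.2% of cells expressed it, and was listed at 0 in PLT1. Mnd1, Shcbp1 and Zbtb25, and the predicted genes 9130401M01Rik and 1700021F05Rik, had the next largest differences.

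Cell cycle genes differed widely between the 2 PLT mice. All 30 S phase genes were expressed in a larger share of cells in PLT2 than in PLT1, and the same was true of 28 of 30 G2-M genes. This stands beside 81.2% of the 6211 genes, which also had the larger share in PLT2, where more genes were detected. By level, the median log2 difference PLT2 minus PLT1 was 0.93 for S phase genes and 1.11 for G2-M genes, against -0.03 for the 6211 genes. The 2 list medians cover all tested members, without the minimum mean of 10 RPKM that the 6211 genes had to reach. Pcna, the sliding clamp of DNA replication, had 183 RPKM in PLT1 and 470 RPKM in PLT2 and was expressed in 26.9% and 84.5% of cells. Slbp, the histone mRNA binding protein, had 78.0 and 346 RPKM, and Cks2, a partner of cyclin-dependent kinases, 55 and 327 RPKM.

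Within each mouse the cell cycle genes were concentrated in part of the cells. Counting S phase genes at 10 RPKM or more, the median cell of PLT1 had 2 of 30 and the median cell of PLT2 had 8. At least 10 were found in 7 PLT1 cells (7.53%) and 37 PLT2 cells (44.0%), against 14.1 to 40% in the other mice. At least 5 of 30 G2-M genes were found in 6 PLT1 cells (6.45%) and 24 PLT2 cells (28.6%), against 11.8 to 24%. PLT1 was thus the lowest and PLT2 the highest of the 6 mice in both counts, and the 2 PLT mice did not share a level. The S phase count moved with the number of detected genes across cells (rho 0.50 in PLT1 and 0.74 in PLT2), and the part of detection in it was not tested. Against the other classes neither list stood apart: the medians of PLT minus rest were -0.24 and -0.14, with 1 S phase gene (Mcm7) and 1 G2-M gene (Plk1) below and 1 G2-M gene (Ttk) above in both PLT mice. Of the inhibitors that hold cells in quiescence, Cdkn1b, which encodes p27, was expressed in 90.3% and 91.7% of PLT cells and overlapped. Cdkn2d, which encodes p19-INK4d, had 40.5 and 25.6 RPKM against 50.8 to 124 RPKM, but its log2 difference from the rest turned from -1.34 to 0.20 without the cells that carried at least 3 markers of another cell type.

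**Figure D4:**
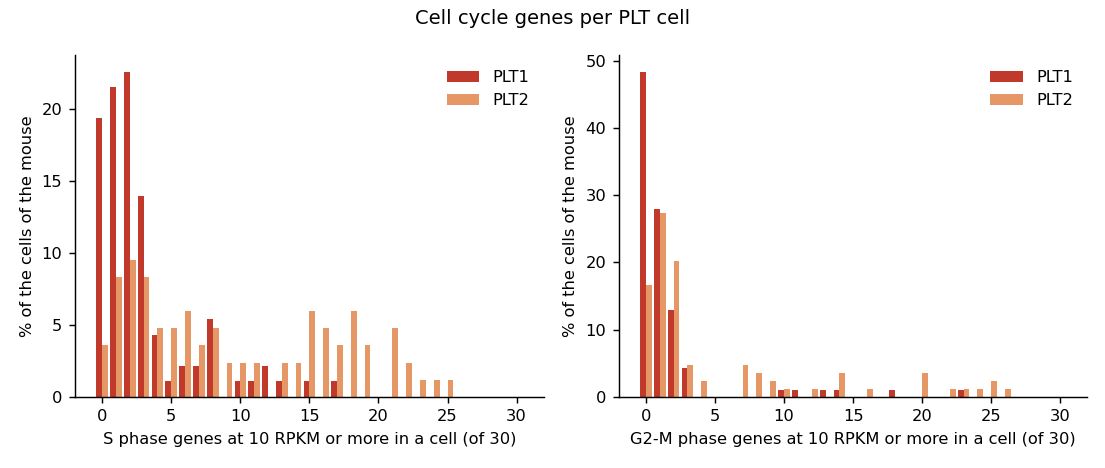
Share of the cells of a mouse (vertical axis, %) by the number of S phase genes (left) or G2-M genes (right) at 10 RPKM or more, out of 30 each, in PLT1 (red) and PLT2 (orange). The median cell had 2 S phase genes in PLT1 and 8 in PLT2, and PLT2 has a second group of cells beyond 10.

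Transcripts of other cell types also differed between the PLT mice. At least 3 of 15 neutrophil markers were expressed in 13 PLT1 cells (14.0%) and 1 PLT2 cell (1.19%), against 1.28 to 12% in the other mice. S100a8, an abundant neutrophil protein, had 1822 RPKM in PLT1 and 116 RPKM in PLT2, and 16 PLT1 cells carried it. The summed neutrophil level was 3227 RPKM in PLT1, 219 in PLT2 and 264 to 15191 in the others. The 13 PLT1 cells had Mt1 in 84.6% and Mmrn1 in 46.2% of cells, against 82.5% and 27.5% of the other 80 PLT1 cells. Megakaryocyte markers, 14 genes that overlap the platelet lists, reached at least 3 per cell in 9.68% of PLT1 cells and 36.9% of PLT2 cells, against 9.41 to 40% elsewhere. Pf4 was in 17.2% and 75% of PLT cells, whereas Gp5 and F2rl2 were listed at 0 in PLT1. At least 3 mature erythroid markers were seen in 2.15% and 8.33% of cells, T and NK cell markers in 1.08% and 4.76%, macrophage markers in 1.08% and 2.38% and endothelial and stromal markers in 0% and 2.38%, and no PLT cell had 3 B cell or mast cell markers. Whether these transcripts come from the sorted cell or from RNA of other cells was not tested. Without the cells that had at least 3 markers of another type, a setting that leaves 69 and 43 PLT cells, 0 genes passed against the rest. Of the 41 PLT2 cells left out, 31 had at least 3 megakaryocyte markers, so this setting also removes cells with platelet genes. The share with at least 1 class marker went from 89.2% to 87.0% in PLT1 and from 97.6% to 100% in PLT2. Its mean was 93.5%, compared with 93.4% for all cells.

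Cell-to-cell spread was described within each PLT mouse by the squared coefficient of variation, relative to genes of the same mean. Of 3325 genes ranked, 21 were among the 100 most variable in both mice, 21% of each list. Ranked by the variance of log2(RPKM + 1) instead, 17 genes were shared and 0 of them were among these 21, so the genes named here belong to this measure. The highest in both was Beta-s, a beta-globin transcript. Its mean of 1243 RPKM in PLT1 rested on 2 cells at 100 RPKM or more, and 5 cells held 99.9% of the sum. In PLT2, 15 cells were at 100 RPKM or more, the mean was 4053 RPKM and the median cell had 9.71 RPKM. Pf4 was the second. In PLT1, 12 of 93 cells exceeded 100 RPKM and the highest had 5239 RPKM, and in PLT2 28 of 84 did and the highest had 9564 RPKM.

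The other 10 of the 12 leading genes had spread of 2 kinds. Wdr70, Trim12a, Hdac3 and the predicted genes Gm1943, 1700011J10Rik, Gm10509 and 1110059E24Rik were found in 10.8 to 26.2% of cells and drew at least 55.5% of their sum from 5 cells. Ube2c, an anaphase-promoting ubiquitin carrier, and Zfp959 were above 1 RPKM in 65.5 to 89.2% of cells but at medians of 1.74 to 3.29 RPKM, with 4 and 12 cells above 100 RPKM for Ube2c. Anxa1, annexin A1, was the broadest of them at high level, above 100 RPKM in 22 and 29 cells. Ly6a, part of the sorting phenotype, was also among the 21, with coefficients of variation of 1.97 and 1.84. The 5 class markers were not: their ranks by the lower of the 2 residuals were 67 for Gkn3, 877 for Clu, 1442 for Mt1, 2090 for Mmrn1 and 2931 for Vwf. Genes of the same mean had a spread like that of Mmrn1, with residuals of -0.11 and 0.09.

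**Figure D5:**
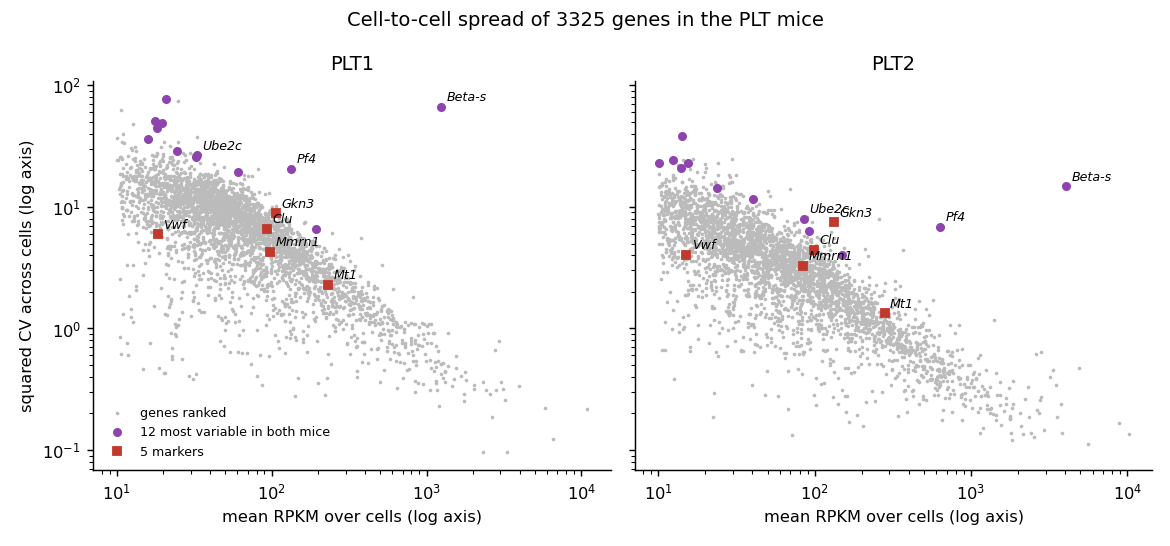
Squared coefficient of variation across cells against mean RPKM, both on log axes, for 3325 genes in PLT1 (left) and PLT2 (right), with the 12 genes most variable in both mice in purple and the 5 markers in red. Beta-s and Pf4 lie above the cloud in both mice, while Mmrn1, Mt1 and Vwf lie within it.

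As a measure of likeness over all tested genes, Spearman's rho between pairs of cells had a median of 0.47 within PLT1, 0.51 within PLT2 and 0.45 between the 2 mice. Within the other mice the medians were 0.42 to 0.47. PLT1 and PLT2 cells had medians of 0.43 to 0.44 with MUL1 and MUL2 cells and 0.42 to 0.45 with PEM1 and PEM2 cells. The median between PLT2 and PEM1 cells (0.454) was as high as that between PLT2 and PLT1 cells (0.451). Pairs within a mouse share plates and depth as well as a clone.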

How the data were processed

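Single-cell libraries (SMARTer, 1 cell each) of 458 HSCs of 6 mice were used, 2 mice per class. The authors deposited 1 table of RPKM values for 22645 genes; per the submitters' processing notes it was made with TopHat, featureCounts and mm10, with no versions given. For each cell, a second table deposited by the authors held its count of mapped reads and of detected genes, the percent of mitochondrial reads, its mouse and its class. All cells were kept; doublets were not called. RPKM was averaged per mouse, and log2(mean + 1) was fitted in limma 3.58.1 (R 4.3.3) over the 6 mice for the 11337 genes whose mean reached 1 RPKM in 2 or more mice, with PLT set against the rest, MUL and PEM and Benjamini-Hochberg adjustment at 0.05. The fit has 3 residual degrees of freedom, and a median of 8.33 in total after limma pools the spread over genes of similar mean. Its p-values thus rest on the spread between mice, each of which is 1 clone, in part that of other genes. An exact permutation test of 2 against 4 mice cannot go below p = 0.133 (two-sided). Fold changes are on the log2(mean + 1) scale, which understates those of low genes, and no count test was run because the values are not counts. Intervals (95%) of a share are exact binomial (Clopper-Pearson) and, like the upper limit of 3 cells behind a 0, they reflect counting error alone. Differences between the PLT mice required 4-fold and no overlap of plates, and cell-to-cell spread was ranked among genes whose mean reached 10 RPKM. The fits were tested on simulated data. Named genes were the markers, the 10 with the smallest p in each direction against the rest (predicted genes passed over), up to 6 of each list in most PLT cells and the members apart from all other mice with an unadjusted p under 0.05, the 10 highest means, the 12 most variable genes and the 6 largest differences between the PLT mice in each direction. Other list members named were chosen after their values were seen. The members, markers and lists were chosen with earlier results of these data known. Alternatives changed the threshold, pseudocount, filter, scaling, plates, depth and mice. Some genes that the naming rule covers are not reported here.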

Additional observations from a re-analysis of the deposited data

How the results depend on the processing

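The number of genes past the threshold depended on the settings. Against the rest, where 0 genes passed, 3 passed with a minimum mean of 5 RPKM, 4 without a filter, 2 with a pseudocount of 10, 2 with quantile normalization, and 1 each with the mean of log2 values over cells, median-ratio scaling and an untrended prior variance. Leaving out each mouse in turn gave 0 to 0. Against MUL, where 1 gene passed, 19 passed without a filter, 4 with quantile normalization, and 2 each with a minimum mean of 5 RPKM, a pseudocount of 10 and cells with 3 to 7 M reads. It was 0 with a pseudocount of 0.1, the mean of log2 values over cells, an untrended prior variance, either plate alone, or without the cells with 3 markers of another type, and 0 to 0 without each mouse in turn. Against PEM, 4 genes passed without a filter and 0 otherwise. Where a class was left with 1 mouse, that mouse was assumed to vary like the others.

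Mmrn1 against the rest passed under 6 settings (limma adjusted p 0.0157 to 0.0432), Ctla2b under 3 (0.0157 to 0.0432) and Gna15 under 1 (0.0468). Of 1315 alternative fold changes of 74 named genes, 1 changed sign (Cdkn2d, 0.20 without the cells with 3 markers of another type); the cause was not tested.

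The share of PLT cells with at least 1 marker (93.4%, mean of both mice) was 99.4% above 0 RPKM, 99.4% at 0.1 RPKM and 84.2% at 10 RPKM, and 89.2 to 97.6% with each PLT mouse alone. The share with at least 3 (33.5%) was 87.8% above 0 RPKM. The 327 genes in nearly all cells became 105 at 10 RPKM and 1066 above 0 RPKM, and 415 to 591 with each mouse alone. The 21 shared variable genes became 8 of the top 50 and 50 of the top 200. By the variance of log2(RPKM + 1) 17 genes were shared, 0 of them among the 21; without the cells with 3 markers of another type 17 were shared, 3 of them among the 21; within plates 15 were, 9 of them among the 21. The 567 genes that differed between the PLT mice became 206 at 8-fold, 56 with a pseudocount of 10, and 817 without the cells with 3 markers of another type, a setting chosen after seeing the data.

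No paired analysis was possible because the replicate numbers only follow the order of the samples. Depth per cell limits the shares: genes sampled in few reads can be missed in cells that express them, and 2 mice per class limit every comparison.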
